A study of Sus scrofa with 19 samples.

Results

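The endometrium of a uterine horn that received vehicle alone, in a gilt whose opposite horn received hormones, was compared with the endometrium of gilts that received no hormone in either horn. The comparison took the 5 arrays labelled as placebo horns of treated gilts and the 8 arrays of the 4 control gilts, 13 of the 19 arrays of the series, and was chosen by label alone. A gilt is a young female pig. All animals were crossbred, 8 months old, had both horns cannulated by surgery on day 8 or 9 of the cycle, and were infused at intervals of 4 h for a span of 24 h, on days 11 and 12 counted from oestrus.

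Each control gilt (numbers 9, 14, 28 and 46) received vehicle, 5 mL of saline with 1% ethanol, in both horns. In the treated gilts (36, 38, 41, 44 and 47) one randomly chosen horn received 200 µg of prostaglandin E2 (PGE2) with 33.3 µg of estradiol (E2) at each infusion, and the contralateral horn, the subject here, received the same vehicle as the controls. The hormone horns of these 5 gilts entered the model and served for a comparison with the placebo horns. So did that of gilt 40, for which no placebo horn was analysed here. All 5 placebo horns carried the mark L, and the hormone horns of the same 5 gilts the mark P. Each control gilt had a horn marked L and another marked P, letters whose meaning the labels leave unstated. Every animal of both groups had undergone surgery and infusion, and no unoperated animal was analysed here.

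Around the time these infusions were given, pig conceptuses elongate and release estradiol, and the endometrium responds with more PGE2 relative to the luteolytic prostaglandin F2α. The horns of the pig uterus are long, join at a short common body and share the blood supply and systemic hormones of the animal. The luminal and glandular epithelium faces the infused lumen and secretes the nutrient-rich fluid that feeds the conceptus, while the stroma beneath it holds vessels and resident immune cells.

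Signals on the arrays are given as log2 of the processed signal minus log2 of the 75th percentile of the same array, so that 0 is the brightness of that percentile and 1 unit is a doubling. The horns of a control gilt were averaged for display, and values are listed throughout in the order of gilts 9, 14, 28 and 46 for controls and 36, 38, 41, 44 and 47 for placebo horns. Between 79.1% and 88.4% of spots were well above background on the 19 arrays. Each array is a separate horn, and the number of gilts limits the precision. Defining genes of endometrium were present in every group: the epithelial adhesion gene EPCAM lay between 4.67 and 5.56 and the stromal proteoglycan gene LUM between 3.74 and 4.61 over control gilts and placebo horns. Gilt 47 stood apart from the other animals. On the first principal component, which held 33.7% of the variance, its placebo horn lay at 155, against -26.3 to 31.4 for the other 4 placebo horns and -87.6 to -32.7 for the 8 control horns. The hormone horn of the same gilt lay beside it at 133. Both horns of a gilt were on one slide; the slide of control gilt 9 also held treated gilt 36, and the other slides held 1 gilt each, so for those gilts animal and slide cannot be told apart. Among genes with a symbol the median standard deviation was 0.20 over the 4 control gilts, 0.35 over the 5 placebo horns and 0.28 over the 4 placebo horns without gilt 47.

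Among the genes higher in placebo horns were the mucosal glycoprotein DMBT1, lysozyme (LYZ), the epithelial adhesion genes EPCAM, CLDN4 and CDH1, the transcription factor CEBPB and the kinase SGK1. The brush border peptide transporter SLC15A1, the γ-glutamyl peptidase GGT1 and the vasodilator peptide ADM were also higher. Lower genes included the antimicrobial lectin REG3G, the troponin TNNT1, the carbonyl reductase CBR2 and the Wnt antagonist SFRP4. The median size of the difference among genes that passed was 0.89 log2 units.

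In limma's moderated test with gilt as a random block, 1728 of 39091 probes passed at an adjusted p under 0.05, or 4.42%. Of these 962 were higher (2.46% of all probes) and 766 lower (1.96%). Among the 3010 genes named through a RefSeq symbol, 135 passed (4.49%): 110 rose (3.65%) and 25 fell (0.831%). Groups did not overlap, meaning that every placebo horn lay on the same side of every control gilt, at 280 genes in the higher direction (9.3%) and 92 in the lower (3.06%). Of the genes that passed, 87 of the 110 that rose and 17 of the 25 that fell did not overlap. Named and unnamed probes split differently. RefSeq probes had 438 higher and 51 lower calls and a median difference of 0.12. Probes carrying a contig identifier, not one of RefSeq or Ensembl, had 71 higher and 391 lower calls and a median of -0.16. The median over all probes was -0.06 and over named genes 0.07.

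These calls were not stable to the choice of animals or to how the horns of a control gilt were counted. When both horns of a control gilt were averaged, so that 5 placebo horns met 4 control gilts, limma passed 0 probes, the smallest adjusted p was 0.0779, and 8746 probes (22.4%) had an unadjusted p under 0.05. With gilts left out in turn the count was 0 without control gilt 28 (7403 probes at an unadjusted p under 0.05), 34 without control gilt 14, 126 without control gilt 9, 396 without gilt 38, 418 without gilt 47, 938 without gilt 41, and 1502 to 1548 without gilts 40, 44 or 46. It was 3294 without gilt 36, whose placebo horn lay nearest to the controls on the first component. Of the 48 genes named below that passed, all 48 kept their direction in every one of these fits, in each of the 3 scan days and against control horns marked L alone. For the 34 of them without overlap the direction is fixed by their selection, so it is no sign of stability. The others were chosen by passing in a fit on these same animals, which made a reversal unlikely. Their kept direction gives no separate support either. With slide in place of gilt as the block 5005 probes passed. On the slide that held both kinds of animal, placebo horn 36 lay on the called side of control gilt 9 for 48 of the 48 genes. This compares 1 animal with 1 animal and gives no separate support. The 34 genes without overlap had to meet it, and both animals were in the fit that chose all 48. None of the 48 passed in every fit: 0 passed without gilt 28 (lowest adjusted p 0.0581), 4 without gilt 14, 5 without gilt 9, 14 without gilt 47 and 15 without gilt 38. With averaged control gilts their adjusted p lay between 0.0779 and 0.173. "Rose" and "fell" below refer to the model with the block. Counts in the lists below stand against these shares of all named genes: 3.65% rose, 0.831% fell, and 9.3% had no overlap in the higher direction. At an unadjusted p under 0.05 with averaged control gilts (limma), 18.4% were higher and 6.91% lower.

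**Figure D1:**
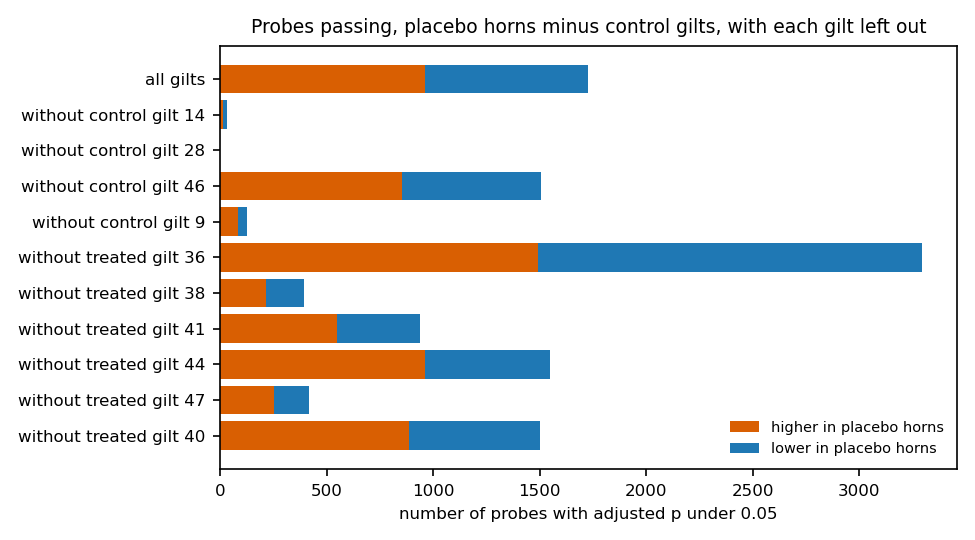
The plot of passing probes by left-out gilt shows, for each fit, how many of the tested probes passed at an adjusted p under 0.05 in placebo horns against control gilts, split into higher and lower. The count ran from 0 without control gilt 28 to 3294 without gilt 36, around 1728 with all gilts.

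DMBT1 encodes a scavenger receptor glycoprotein of mucosal surfaces that binds bacteria, and it combined a large rise with a wide gap between the groups. Its control values were -5.22, -3.89, -4.96 and -2.79, and its placebo horn values -0.86, -1.03, -1.69, 0.39 and 0.51. Every placebo horn lay above every control gilt, with gilts 44 and 47 highest and control gilt 46 highest among the controls. The difference was 3.78 ± 0.61 log2 units (standard error, 13.7-fold), with an adjusted p of 0.00946 (limma), and both of its probes passed. On the 3 scan days, with 1 or 2 gilts of either group on each, it was 4.98, 3.69 and 2.53. In bulk tissue, more cells of a type and more RNA per cell cannot be told apart, here or for any gene below.

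TMEM171, a gene for a little-studied membrane protein, had control values of -2.91, -2.49, -3.38 and -3.17 and placebo horn values of -1.11, -0.07, -0.82, -1.16 and -0.14. The gap between the lowest placebo horn and the highest control gilt was 1.32 log2 units, and no placebo horn approached the control range. It rose by 2.32 ± 0.33 (adjusted p = 0.00756). TRIM26, a ubiquitin ligase gene of the major histocompatibility region, rose by 1.43 ± 0.21 (adjusted p = 0.00756), from -4.05, -4.30, -4.19 and -3.54 in control gilts to -2.23, -2.82, -2.66, -3.02 and -2.03 in placebo horns. The groups did not overlap, but a second TRIM26 probe gave a difference of 0.30 and did not pass. Of the named genes, these with DMBT1 and CEBPB were the 4 that still passed without control gilt 14.

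Among 11 measured genes of inducible transcription and signalling factors, 2 rose, 1 fell and 8 did not pass, with a median difference of 0.43 against 0.07 for all named genes. CEBPB, a transcription factor of the acute phase and of endometrial differentiation, had control values of -3.78, -3.89, -3.53 and -2.94 and placebo horn values of -2.09, -1.35, -1.70, -2.15 and -0.83. All 5 placebo horns lay above all 4 control gilts, with gilt 47 highest. CEBPB rose by 1.92 ± 0.30 (3.79-fold, adjusted p = 0.00946), and within scan days it differed by 1.66, 2.22 and 1.85. SGK1, a kinase that regulates epithelial ion transport, rose by 1.54 ± 0.30 (adjusted p = 0.0213). Its levels were 0.34, 1.03, 0.43 and 1.03 in control gilts and 2.13, 2.50, 1.96, 1.62 and 2.46 in placebo horns, again with no overlap. MITF, a transcription factor of melanocytes and mast cells that is also made in other tissues, fell by 1.03 ± 0.22 (adjusted p = 0.0238). FOS, an immediate early gene, stood at -2.57, -1.21, -1.18 and 0.66 in control gilts and -0.13, 0.43, 0.90, 1.31 and 1.27 in placebo horns. Control gilt 46 lay within the placebo range, and FOS did not pass (adjusted p = 0.107).

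**Figure D2:**
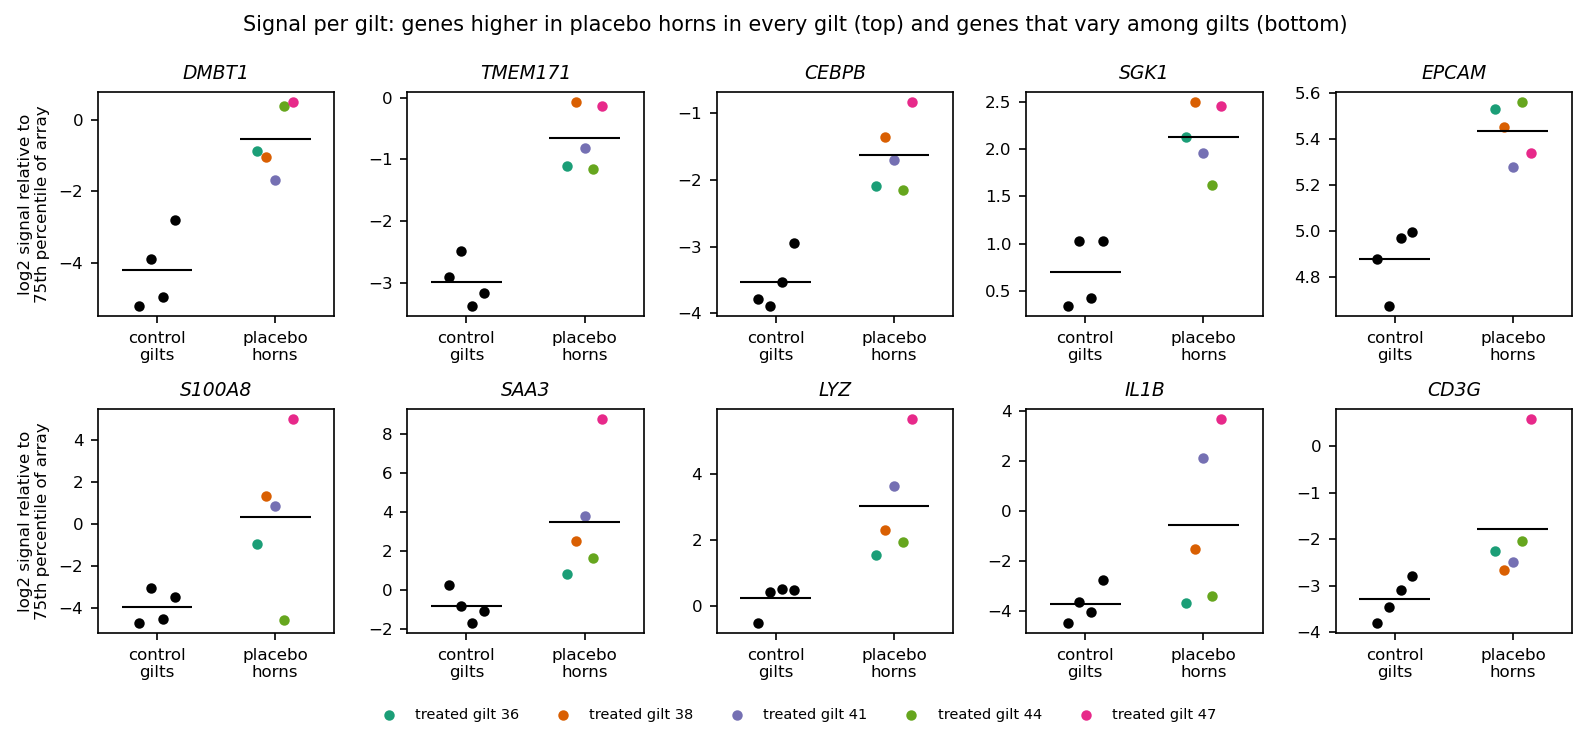
The plot of genes higher in placebo horns shows each control gilt (mean of its horns) and each placebo horn as a point, on a log2 scale relative to the array's 75th percentile, with black lines at the group means. DMBT1, TMEM171 and CEBPB show no overlap, while S100A8 shows placebo horn 44 at -4.59, inside the control range, and placebo horn 47 at 4.98.

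Of 9 measured epithelial markers 4 rose and none fell, and 5 had no overlap between the groups in the higher direction. Over all named genes 3.65% rose and 9.3% had no overlap in that direction. The epithelial list median was 0.57. EPCAM, the adhesion molecule that defines epithelium, rose by a small and even amount. It stood at 4.88, 4.67, 4.97 and 5.00 in control gilts and at 5.53, 5.45, 5.28, 5.56 and 5.34 in placebo horns. The standard deviation was 0.15 over control gilts and 0.12 over placebo horns, so the difference of 0.57 ± 0.12 (1.48-fold, adjusted p = 0.0222) exceeded the spread of both groups. All 16 of its probes passed, with differences from 0.48 to 0.82, and within scan days it differed by 0.67, 0.53 and 0.40.

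Of the 5 other junction genes measured, CLDN4 and CDH1 rose, while CLDN3 (-0.04, adjusted p = 0.943), CLDN7 (0.15, adjusted p = 0.727) and OCLN (0.02, adjusted p = 0.96) did not pass. CLDN4, a claudin of tight junctions, had control values of 0.18, 1.02, 1.08 and 1.58 and placebo horn values of 2.35, 3.07, 1.91, 1.75 and 3.23, a rise of 1.53 ± 0.34 (adjusted p = 0.0259). CDH1, the E-cadherin of adherens junctions, rose by 0.95 ± 0.25 (adjusted p = 0.0422), from 1.68, 1.77, 1.87 and 2.12 to 2.58, 3.15, 2.25, 2.90 and 2.99. Neither gene overlapped between groups, and control gilt 46 was the nearest control in both. UPK1B, an apical uroplakin that responds to estrogen in pig uterus, rose by 1.95 ± 0.50 (adjusted p = 0.037), with placebo values of -2.14, -0.43, -2.49, -0.74 and 0.07 above control values of -4.0, -2.75, -2.87 and -2.63. The gap was small at gilt 41. MUC4, a membrane mucin, was 1.71 ± 0.53 higher and did not pass (adjusted p = 0.0672), and the keratin gene KRT8 differed by -0.16 (adjusted p = 0.71). Unlike the immune lists described next, the epithelial list was not highest in gilt 47: the median of its members above the control mean was 0.46 in that horn and 0.39 to 0.75 in the others. Without gilt 47 EPCAM still passed (0.59, adjusted p = 0.0284), while CLDN4 (adjusted p = 0.0588), CDH1 (0.0876) and UPK1B (0.0903) did not.

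Innate immune genes held the largest rises among the named genes that passed, S100A8 and SAA3, and they varied widely among the treated gilts. S100A8, a calgranulin abundant in neutrophils, had control values of -4.74, -3.05, -4.55 and -3.47 and placebo horn values of -0.97, 1.34, 0.82, -4.59 and 4.98. The horn of gilt 44 sat within the control range and that of gilt 47 lay far above the rest, and within scan days the difference was 1.96, 4.28 and 6.63. The difference was 4.34 ± 1.19 (adjusted p = 0.0457), and without gilt 47 it was 3.23 and did not pass (adjusted p = 0.111). Its partner calgranulin S100A9, at -2.50, 0.65, -0.64, -4.74 and 3.84 in the placebo horns, and S100A12, at -0.24, 2.43, 1.98, -3.69 and 5.02, had the same order of gilts. Neither of these passed (adjusted p = 0.0772 and 0.0705). TREM1, an activating receptor of neutrophils and monocytes, was well above background on 1 of 8 control arrays and 4 of 5 placebo arrays, and its difference of 3.51 ± 1.15 did not pass (adjusted p = 0.0794). Not all members were higher: PGLYRP1 differed by -1.48 ± 0.56 (adjusted p = 0.124) and MMP9 by 0.11 ± 0.16 (adjusted p = 0.704). In all, 1 of 6 measured calgranulin and neutrophil genes passed. Their median above the control mean ranged from -0.70 in gilt 44 to 7.50 in gilt 47, with the remaining horns at 1.36 to 4.69.

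SAA3, an acute phase serum amyloid made in epithelium and macrophages, was above all controls in every placebo horn. The control values were 0.28, -0.78, -1.67 and -1.08 and the placebo horn values 0.83, 2.52, 3.80, 1.68 and 8.78. Gilt 36 lay close to control gilt 9, while gilt 47 exceeded every other horn by several units. SAA3 rose by 4.31 ± 1.02 (adjusted p = 0.0312), all 5 of its probes passed, and without gilt 47 it rose by 3.09 (adjusted p = 0.0285). The antimicrobial enzyme lysozyme, LYZ, rose by 2.66 ± 0.59 (adjusted p = 0.026), from -0.51, 0.42, 0.52 and 0.50 to 1.53, 2.30, 3.62, 1.94 and 5.65. The lowest placebo horn was 1.01 above the highest control gilt, and LYZ too passed without gilt 47 (2.05, adjusted p = 0.0249). CHI3L1, a chitinase-like protein of activated macrophages, rose by 3.53 ± 0.98 (adjusted p = 0.0471) with placebo horns at -1.84, 0.58, 1.01, -2.0 and 5.53. The horn of gilt 44 fell just inside the control range, which reached -1.93. The ficolin gene FCN1, a lectin of monocytes, rose by 2.76 ± 0.69 (adjusted p = 0.0351), with gilts 38, 41 and 47 at -0.59, 0.16 and 0.16 and gilts 36 and 44 at -3.78 and -3.24. Among controls FCN1 ran from -4.98 to -3.37, so gilt 36 overlapped with them. Neither CHI3L1 (adjusted p = 0.0605) nor FCN1 (0.0845) passed without gilt 47.

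Of 18 measured acute phase and antimicrobial genes 3 rose (DMBT1, SAA3 and CHI3L1), 1 fell (REG3G) and 14 did not pass, with a median of 0.07, against 0.07 for all named genes, and of -0.02 without gilt 47. Among 14 macrophage and dendritic cell markers 2 rose (LYZ and FCN1) and none fell, against 3.65% rising over all named genes. The list median was 0.91 (0.55 without gilt 47), and 4 members did not overlap in the higher direction, against 9.3% of all named genes. The median above the control mean was 2.69 in gilt 47 and 0.19 to 1.26 in the other horns, and the summed level of the list was 21.5 to 31.0 over control gilts and 33.4 to 276 over placebo horns, on a linear scale where 1 is the 75th percentile. None of 13 T and natural killer cell markers passed, with 3 higher and 1 lower at an unadjusted p under 0.05 in the averaged fit. None of 3 B and plasma cell markers passed, nor had any such a p, against 18.4% higher and 6.91% lower among all named genes. In these lists the placebo horn of gilt 47 was at 2.41 and 3.32 above the control mean, against 0.13 to 0.70 and -0.40 to 0.10 in the other placebo horns. Its hormone horn was at 2.53 and 3.07, and at 2.48 for the macrophage and dendritic cell list. The T cell receptor gene CD3G, for example, was at -2.26, -2.67, -2.49 and -2.04 in gilts 36, 38, 41 and 44 and at 0.59 in gilt 47. The part that immune cell content had in the changed genes was not tested.

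**Figure D3:**
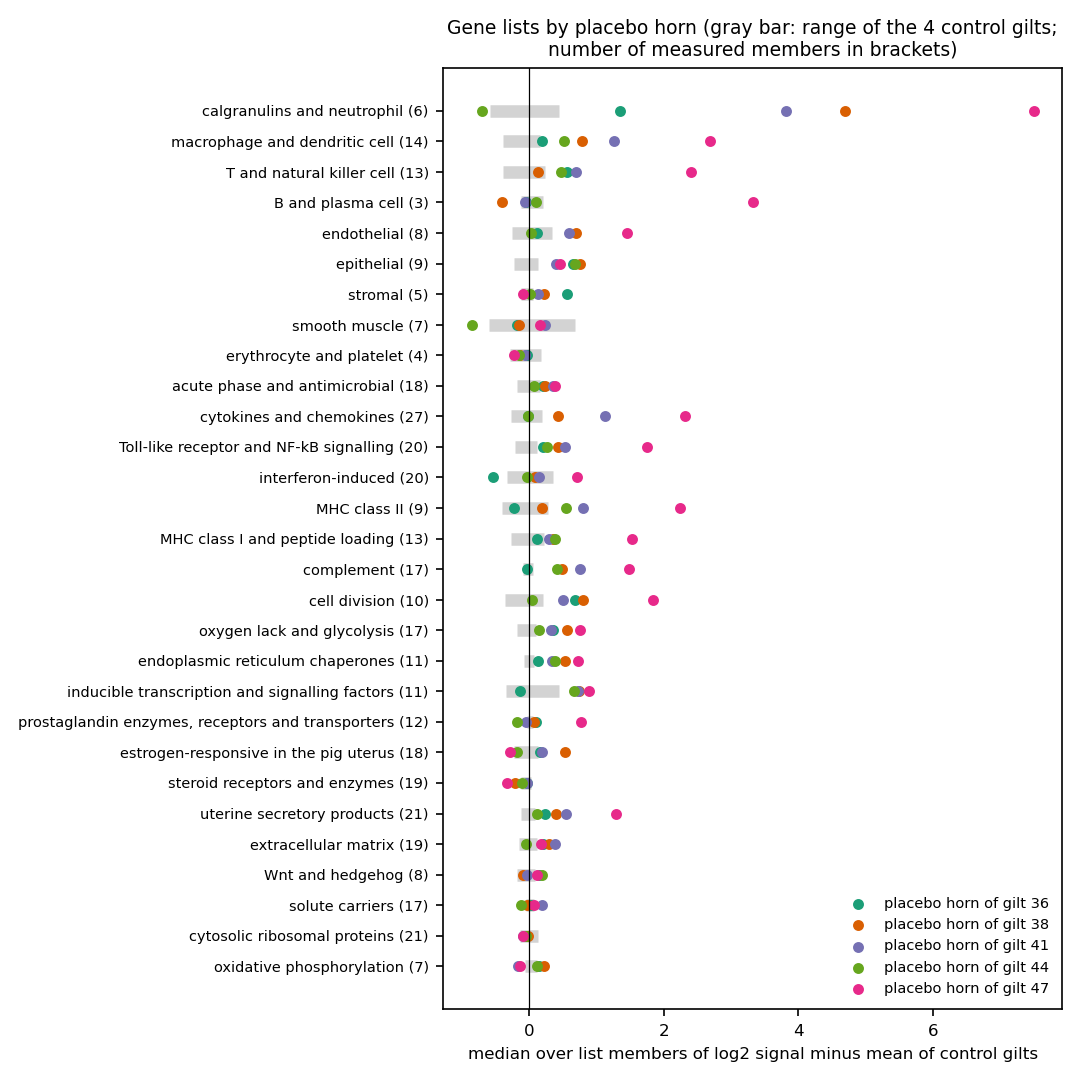
The plot of marker and pathway lists shows, for each list, the median over its members of the value in each placebo horn minus the control mean (log2), one point per horn. In the B and plasma cell list only gilt 47 lies apart (3.32), whereas the epithelial list has all 5 horns between 0.39 and 0.75.

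In the pathway from Toll-like receptors to NF-kB 2 genes passed, and both were higher in every placebo horn than in any control gilt. MYD88, the adaptor of Toll-like receptors, had control values of -4.08, -3.99, -3.89 and -3.64 and placebo horn values of -2.79, -2.67, -2.76, -3.38 and -1.54. RELA, the p65 subunit of NF-kB, had control values of -2.31, -3.02, -2.67 and -2.30 and placebo horn values of -1.85, -1.79, -1.86, -2.01 and -1.79. Neither overlapped, and RELA varied less among placebo horns (standard deviation 0.09) than among control gilts (0.34). MYD88 rose by 1.24 ± 0.27 (adjusted p = 0.0257) and RELA by 0.69 ± 0.15 (adjusted p = 0.026), and both RELA probes passed. Of 20 measured genes of Toll-like receptor and NF-kB signalling these 2 passed, 18 did not, and 7 had no overlap in the higher direction. Over all named genes 3.65% rose and 9.3% had no overlap in that direction. TLR4, the receptor for bacterial lipopolysaccharide, was 1.11 ± 0.33 higher and did not pass (adjusted p = 0.061), and neither did its co-receptor gene LY96 at 0.66 ± 0.21 (adjusted p = 0.0743).

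None of the 27 measured cytokine and chemokine genes passed, although their median was 0.75, or 0.35 without gilt 47 (3 were higher and 0 lower at an unadjusted p under 0.05 with averaged control gilts). The median above the control mean was 2.32 in gilt 47 and -0.02 to 1.12 in the other placebo horns. IL1B, the inflammatory interleukin 1β, stood at -3.68 and -3.40 in gilts 36 and 44, within the control range of -4.47 to -2.75, and at -1.50, 2.12 and 3.68 in gilts 38, 41 and 47 (adjusted p = 0.137). None of 20 interferon-induced genes, 9 genes of MHC class II, 13 genes of MHC class I and peptide loading, and 17 complement genes passed in the limma test. Their medians were 0.03, 0.57, 0.56 and 0.78, and without gilt 47 they were -0.11, 0.23, 0.34 and 0.52. For MHC class II the placebo horn of gilt 47 was 2.24 above the control mean and the others -0.22 to 0.80. In the same 4 lists, 1, 0, 4 and 6 members were higher at an unadjusted p under 0.05 with averaged control gilts, and 0 were lower. Among all named genes the corresponding shares were 18.4% higher and 6.91% lower.

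Genes of low oxygen and of protein folding were raised in part. HIF1A, the transcription factor that drives the response to low oxygen, had control values of -0.31, -0.13, -0.14 and 0.22 and placebo horn values of 0.71, 0.48, 0.62, 1.63 and 1.46. It rose by 1.01 ± 0.25 (adjusted p = 0.035) with no overlap, and the second of its probes differed by 0.66 without passing. ADM, the vasodilator adrenomedullin, rose by 2.03 ± 0.55 (adjusted p = 0.0454), from 0.72, 1.52, 1.52 and 2.50 to 2.68, 3.43, 3.91, 2.60 and 4.35. Control gilt 46 came within 0.10 of the lowest placebo horn. These were the 2 of 17 measured genes of oxygen lack and glycolysis that passed, the list median was 0.38, and neither passed without gilt 47 (adjusted p = 0.0683 and 0.111). The glycolytic genes PGK1 (0.67 ± 0.20, adjusted p = 0.0557) and LDHA (0.99 ± 0.30, adjusted p = 0.065) did not pass.

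Of 11 genes of endoplasmic reticulum chaperones and their stress response 3 rose, 8 did not pass and all 11 had positive values, with a median of 0.41. Over all named genes 3.65% rose and 1755 of 3010 had positive values. Only 1 of the 11 had no overlap in the higher direction, against 9.3% of all named genes. DNAJC3, a co-chaperone that restrains a stress kinase, rose by 1.09 ± 0.25 (adjusted p = 0.0278), with 0.26, 0.37, 0.31 and 0.47 in control gilts and 0.76, 1.33, 1.26, 1.20 and 2.54 in placebo horns. DNAJB11, a co-chaperone of the main lumenal chaperone, rose by 0.84 ± 0.22 (adjusted p = 0.0415), and all 3 of its probes passed. The stress transcription factor ATF4 rose by 0.38 ± 0.10 (adjusted p = 0.0404), with 5 of 6 probes passing. Placebo horn 36 overlapped with control gilts in both of the last genes. CYCS, the cytochrome c of the respiratory chain, was tighter: 2.57, 2.33, 2.60 and 2.49 in control gilts against 3.31, 3.15, 3.09, 3.26 and 3.37 in placebo horns. It rose by 0.73 ± 0.17 (adjusted p = 0.0312), 11 of its 12 probes passed, and it was the 1 of 7 measured genes of oxidative phosphorylation to do so. None of 21 cytosolic ribosomal protein genes passed, and their median was -0.03, or up to 0.07 under another scaling. In the averaged fit 2 were higher and 1 lower at an unadjusted p under 0.05, against 18.4% and 6.91% of all named genes.

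Of 10 measured cell division genes 9 had positive values, against 1755 of 3010 over all named genes, while 1 rose and 1 fell. TOP2A, the topoisomerase of dividing cells, rose by 1.67 ± 0.44 (adjusted p = 0.0395), with -4.72, -3.55, -3.81 and -3.13 in control gilts and -1.96, -2.17, -2.53, -3.28 and -0.30 in placebo horns. Gilt 44 overlapped with control gilt 46 and gilt 47 was highest. CDC25C, a phosphatase that activates the mitotic kinase, fell by 1.31 ± 0.36 (adjusted p = 0.0481). The mitotic kinase CDK1 (1.55 ± 0.45, adjusted p = 0.0529) and the cyclin CCNB2 (1.64 ± 0.47, adjusted p = 0.0522) lay just beyond the threshold. Both were among the 8 measured genes that did not pass, and the list median was 0.62 (0.42 without gilt 47).

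Among transporters and enzymes of the apical membrane, SLC15A1, the peptide transporter of brush borders, rose by 2.75 ± 0.71 (adjusted p = 0.038). Control gilts were at -5.93, -3.37, -5.62 and -3.54 and placebo horns at -1.83, -0.66, -2.98, -3.99 and -0.74. Control gilts 14 and 46 overlapped with gilt 44, and the probe was well above background on 7 of 8 control arrays. GGT1, the γ-glutamyltransferase that splits glutathione at the cell surface, rose by 1.93 ± 0.47 (adjusted p = 0.0326), with no overlap between -4.29, -3.36, -3.78 and -3.73 in control gilts and -1.45, -2.57, -2.68, -2.94 and -0.39 in placebo horns. Of 17 measured solute carriers, SLC15A1 rose and 2 fell: the fatty acid transporter SLC27A1 by 0.63 ± 0.14 (adjusted p = 0.0284) and the mitochondrial carrier SLC25A27 by 1.24 ± 0.33 (adjusted p = 0.0432). GLRX, a glutaredoxin that reduces disulfides, rose by 1.88 ± 0.48 (adjusted p = 0.0355), and GNMT, a glycine methyltransferase, by 1.73 ± 0.37 (adjusted p = 0.0238). In GNMT gilt 38 was highest at 1.25, and gilts 41 and 47, at -1.46 and -1.20, were nearest to the highest control gilt at -1.60.

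Of 21 uterine secretory products 2 rose, and the list median was 0.54. TIMP2, an inhibitor of matrix metalloproteinases, rose by 1.08 ± 0.29 (adjusted p = 0.0409), from 4.56, 4.84, 5.09 and 5.32 to 5.43, 6.43, 5.84, 5.73 and 6.72. CTSK, a lysosomal collagen-degrading cathepsin, rose by 0.54 ± 0.14 (adjusted p = 0.0405), from 1.12, 0.93, 1.00 and 1.14 to 1.34, 1.45, 1.57, 1.84 and 1.54. Both groups were apart in both genes. The retinol carrier RBP4, a major product of uterine glands, was 1.02 ± 0.29 higher at an adjusted p of 0.0518. None of 19 extracellular matrix genes passed, and 1 was lower at an unadjusted p under 0.05 in the averaged fit. For OPTC, a small proteoglycan, the difference of -3.80 ± 1.43 (adjusted p = 0.12) came with -6.28 in gilt 47 and -0.79 to 1.84 in the other placebo horns. No measured gene of the endothelial (8), stromal (5), smooth muscle (7) or erythrocyte and platelet (4) marker lists passed. With averaged control gilts and an unadjusted p under 0.05, 3, 0, 0 and 1 of them were higher and 0, 0, 1 and 1 lower. Over all named genes these shares were 18.4% higher and 6.91% lower.

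The genes that fell were fewer, and REG3G spread widely across the treated gilts. REG3G, an antibacterial C-type lectin of epithelia, had even control values of 0.64, 0.14, 0.83 and 0.29 and placebo horn values of -0.07, -0.60, -1.85, -3.37 and -5.35. All placebo horns were below all controls, gilt 36 by only 0.21 and gilt 47 by several units. It fell by 2.75 ± 0.71 (adjusted p = 0.0384; 0.0738 without gilt 47). TNNT1, a troponin of slow skeletal muscle, fell by 2.15 ± 0.42 (adjusted p = 0.0209), from -1.48, -2.51, -2.21 and -1.98 to -3.23, -4.36, -3.65, -4.71 and -4.67. All 4 of its probes passed, the gap was 0.72, and it was still past the threshold without gilt 47 (adjusted p = 0.0403). The smooth muscle list gave no such pattern: its median difference was -0.17, and it was -0.35 to 0.06 with a gilt left out.

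DIRAS2, a small Ras-like GTPase, fell by 1.70 ± 0.38 (adjusted p = 0.026), from -4.60, -4.24, -3.98 and -3.33 to -5.14, -5.19, -6.73, -5.29 and -6.19. Neither group reached into the other. A porcine type of interferon, IFN-DELTA-1, fell by 0.85 ± 0.17 (adjusted p = 0.0213), with control gilts within a narrow band at -1.81, -1.77, -1.83 and -1.83 and placebo horns at -2.48, -2.46, -2.55, -2.59 and -3.36. It passed without gilt 47 as well (adjusted p = 0.0249). SFRP4, a secreted Wnt antagonist of the endometrial stroma, fell by 1.28 ± 0.31 (adjusted p = 0.0334), though gilt 36 at -0.15 overlapped with control gilts 14 and 28, both at -0.19. It was the 1 of 8 Wnt and hedgehog genes that passed. GAP43, a growth cone protein of neurons, fell by 1.24 ± 0.32 (adjusted p = 0.0395), and GATM, the first enzyme of creatine synthesis, by 0.95 ± 0.24 (adjusted p = 0.0369). The fatty acid dehydrogenase ACADL (-1.0 ± 0.27, adjusted p = 0.0415) and the thrombin receptor F2R (-0.95 ± 0.26, adjusted p = 0.0477) fell with overlap. PLCD4, C3H2orf40 and MTURN completed the 15 largest falls, at -1.09, -1.30 and -0.97.

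**Figure D4:**
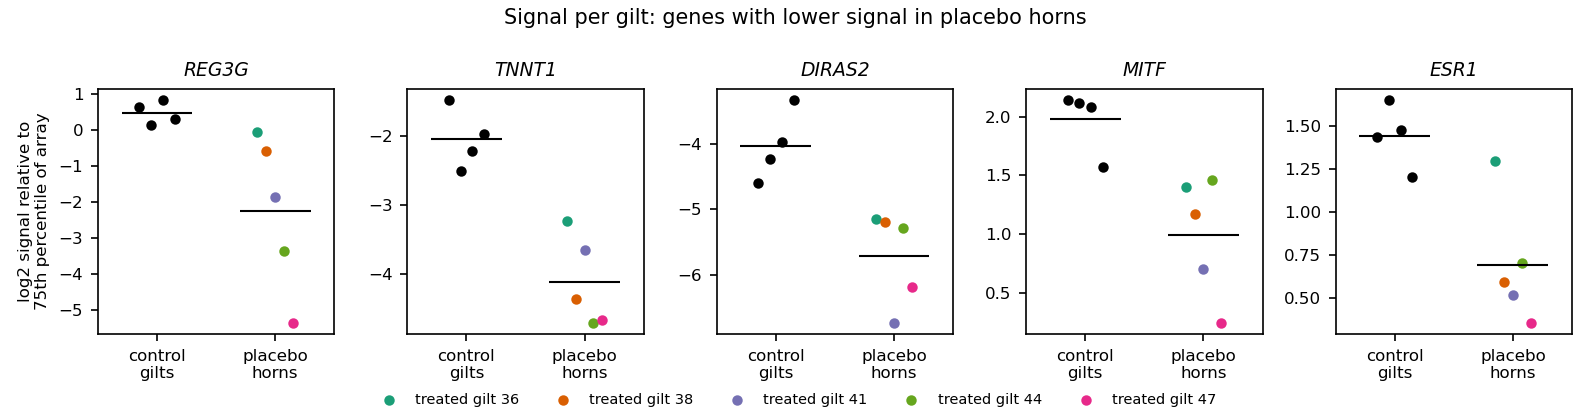
The plot of genes with lower signal in placebo horns shows each control gilt and each placebo horn as a point on the log2 scale, with black lines at the group means. REG3G spreads from -0.07 to -5.35 over the placebo horns, while TNNT1 keeps all 5 below the lowest control gilt.

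The lists of prostaglandin, steroid and estrogen-responsive genes, the pathways of the infused hormones, had 1 passing gene each. Over all named genes 4.49% passed, and in lists this short 1 gene is near that share. Of 12 measured genes of prostaglandin enzymes, receptors and transporters 1 passed: CBR2, a carbonyl reductase, fell by 2.01 ± 0.48 (adjusted p = 0.0319), from 0.61, -0.04, 0.20 and -1.72 to -1.82, -1.76, -1.74, -2.39 and -3.43. Control gilt 46 lay within 0.02 of the nearest placebo horn. PTGS2, the inducible cyclooxygenase, was at 1.92, 2.25, 2.12 and 2.51 in control gilts and 2.09, 3.13, 3.20, 3.60 and 4.17 in placebo horns, a difference of 1.12 ± 0.44 (adjusted p = 0.136). The PGE synthase gene PTGES differed by 0.13 ± 0.31 (adjusted p = 0.83).

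Of 19 measured steroid receptors and steroid enzymes 1 passed. STAR, which carries cholesterol into mitochondria, fell by 0.67 ± 0.18 (adjusted p = 0.043), but only 1 of its 6 probes passed. ESR1, the estrogen receptor α, stood at 1.44, 1.65, 1.48 and 1.20 in control gilts and 1.30, 0.59, 0.52, 0.70 and 0.36 in placebo horns. Only gilt 36 overlapped with the controls, and the difference of -0.72 ± 0.21 did not pass (adjusted p = 0.0554). PGR, the progesterone receptor, differed by 0.01 ± 0.24 (adjusted p = 0.979). HSD11B1, whose enzyme forms active cortisol, was higher in all 5 placebo horns, at 2.25, 3.16, 2.18, 1.88 and 3.16 against 1.58, 1.69, 1.80 and 1.41. Its difference of 0.91 ± 0.26 was just beyond the threshold (adjusted p = 0.054).

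Of 18 measured genes known to respond to estrogen in pig uterus, UPK1B alone passed, and the list median was 0.11 (0.05 to 0.40 with a gilt left out). At an unadjusted p under 0.05 with averaged control gilts (limma), 5 were higher and 3 lower, against 18.4% and 6.91% of all named genes. In the higher direction 3 had no overlap, against 9.3% of all named genes. Members differed both ways, so the median does not describe them all. LPAR3, a lysophosphatidic acid receptor induced in the uterus by conceptus estrogen, was at -4.91, -3.87, -3.76 and -3.85 in control gilts and -2.01, -1.58, -2.99, -3.14 and -4.55 in placebo horns. Gilts 36, 38, 41 and 44 lay above every control gilt and gilt 47 within the control range, and the difference of 1.11 ± 0.47 did not pass (adjusted p = 0.166; 1.51 and 0.0795 without gilt 47). SPP1, the adhesion glycoprotein osteopontin, was at -0.75, 2.55, 3.45, -0.11 and 5.12 in placebo horns, against -0.31, 0.90, -0.51 and 0.41 in control gilts (adjusted p = 0.171). Gilt 36 lay below the controls, gilt 44 among them and the other placebo horns above. STC1, a calcium-regulating hormone of uterine glands, differed by 1.37 ± 0.89 (adjusted p = 0.361), and the growth factor EGF by -1.33 ± 0.47 (adjusted p = 0.103).

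The same 5 gilts also gave a hormone horn, which showed whether the genes of the placebo horn stood at the level of the infused horn. In hormone minus placebo horns 1 of 39091 probes passed (0.00256%) and 0 of 3010 named genes (0.0%, limma, with 362 of them at an unadjusted p under 0.05; the lowest adjusted p among the 48 named passing genes was 0.168). Of the 110 genes that had risen in placebo horns, 60 had a higher mean in the hormone horn, with a median difference of 0.02. Of the 25 that had fallen, 5 were lower in the hormone horn, with a median difference of 0.12. Of these 135 genes 18 had a horn difference at an unadjusted p under 0.05, a share near the 362 of all 3010 named genes. The placebo horns enter both comparisons, so a chance high value in them lowers the difference to the hormone horn.

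For several genes the interval of the horn difference included 0 and did not reach the size of the change from control gilts. CEBPB differed by -0.14 between the horns, with an unadjusted 95% interval of -0.57 to 0.30, against its rise of 1.92. CDH1 differed by 0.00 (-0.37 to 0.36), EPCAM by 0.12 (-0.05 to 0.29), CYCS by 0.10 (-0.15 to 0.34) and TRIM26 by -0.12 (-0.42 to 0.19). LYZ differed by -0.13 (-0.97 to 0.72) and TNNT1 by 0.10 (-0.50 to 0.70). These intervals leave room for a difference between the horns in either direction, as far as -0.97 for LYZ, so equal levels are not shown.

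Other genes had horn differences whose unadjusted interval lay on one side of 0, though none passed after adjustment. DMBT1 was 1.66 higher in hormone horns (0.78 to 2.53, adjusted p = 0.197), where it stood at 1.02, 1.25, -0.73, 2.05 and 1.60. It was higher in the hormone horn of all 5 gilts, on top of the rise in placebo horns. LPAR3 was 1.62 higher in hormone horns (0.94 to 2.30, adjusted p = 0.0987), at -1.05, -0.64, -1.50, -0.71 and -1.74, and the prostaglandin reductase PTGR1 was 0.94 higher (0.53 to 1.34, adjusted p = 0.102). CDK1 and TOP2A were 1.14 (0.50 to 1.78) and 0.97 (0.35 to 1.60) higher. SFRP4, which had fallen in placebo horns, was 0.90 higher in hormone horns (0.45 to 1.35, adjusted p = 0.168), at 0.47, -1.09, 0.13, -0.17 and 0.15. In the other direction HIF1A was lower in the hormone horn of all 5 gilts, with a difference of -0.59 (-0.95 to -0.23, adjusted p = 0.278), as was PTGS2, with -0.71 (-1.34 to -0.08, adjusted p = 0.459). The horn difference of GATM was -0.40 (-0.74 to -0.05, adjusted p = 0.451).

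**Figure D5:**
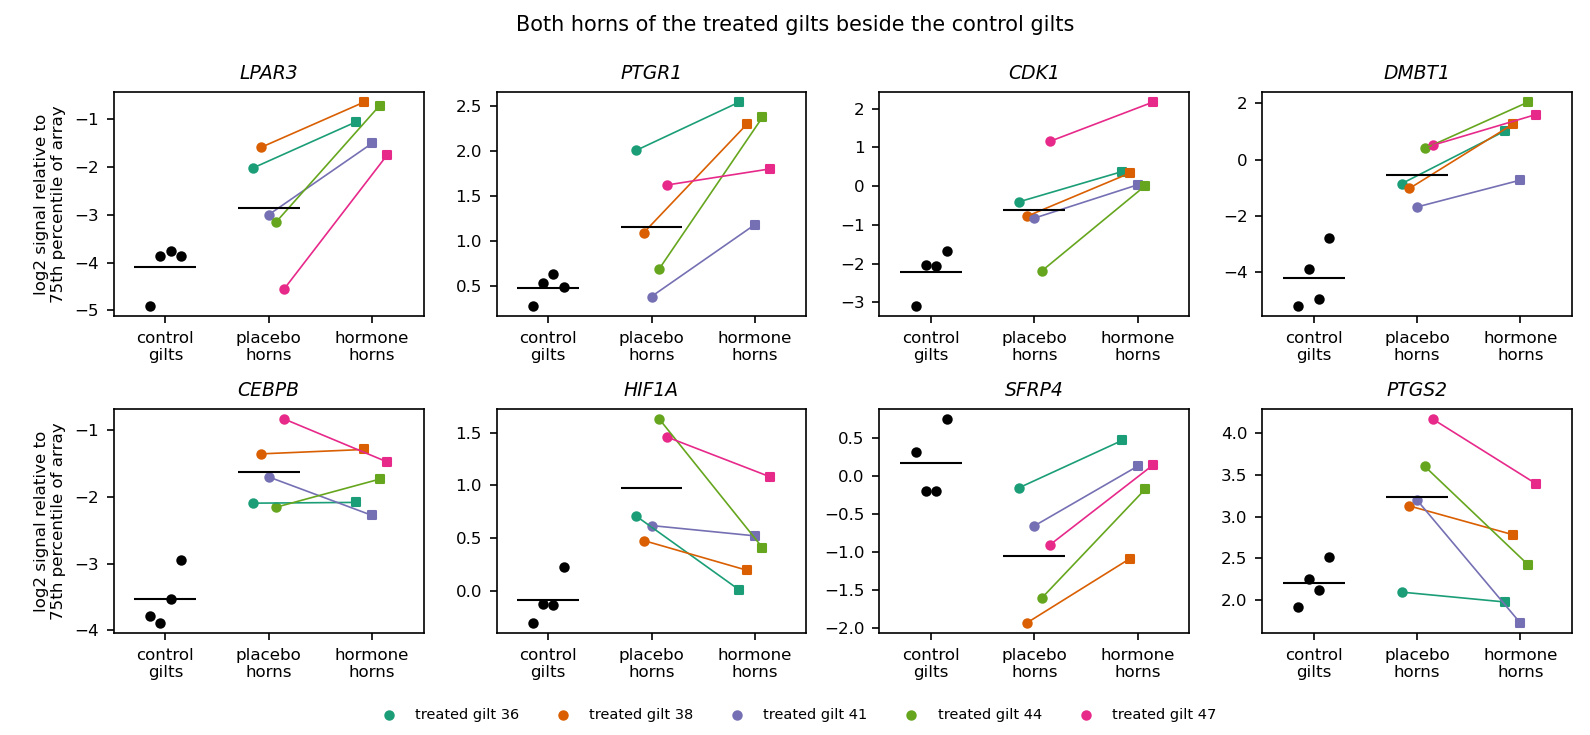
The plot of both horns shows control gilts, placebo horns and hormone horns on the log2 scale, with a line joining the horns of a treated gilt. LPAR3 is higher in the hormone horn of all 5 gilts, HIF1A is lower in it, and CEBPB lies at like levels in both.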

How the data were processed

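RNA of 19 endometrial samples from 10 gilts was amplified, labelled with a single dye and hybridised to Agilent arrays, per the labels' protocols. The deposited scanner files hold linear intensity per spot (processed signal, background-subtracted within the array), made with Agilent Feature Extraction 10.7.3.1 per the file headers (version 9.1 per the submitters' processing notes). The authors' deposited value table is on a log2 scale (r of 0.996 to 0.999 with the scanner values, medians of 7.72 to 7.83); its normalization is not given in the sources used, so it served as an alternative only.

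Controls and 1191 values marked as outliers by the scanner software were removed, and repeat spots averaged. Values were log2 of the signal minus log2 of the array's 75th percentile. Of 39095 probes detected above background on 4 or more of 19 arrays, 39091 had values in every group and were tested, with limma 3.58.1 in R 4.3.3: 4 groups, gilt as a random block (duplicateCorrelation, statmod 1.5.0, correlation 0.536), eBayes with trend, two-sided, Benjamini-Hochberg over all probes, threshold 0.05. The contrast was placebo horns minus the mean of control horns marked L and P. Its estimate weighs arrays within gilts and can differ slightly from the difference of displayed means. The block follows the gilt numbers of the labels. Deviations from group means correlated at 0.403 to 0.628 within control gilts and 0.336 to 0.795 within treated gilts, and at most at 0.143 with other gilts. The fit counts both horns of a control gilt, so its p-values lean on the shared correlation, and the fit on averaged control gilts stands beside it.

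Symbols came from RefSeq accessions (6768 of 43603 probes, 3123 symbols; the rest stayed unnamed), with a gene shown by its brightest probe. Named genes were the 15 largest rises and falls that passed, up to 4 members of each list with the smallest p, up to 10 passing genes with the widest gap between groups, and a short set of uterine genes, 133 in all. Members, lists and this rule were chosen with earlier results of these data known. The lists are those of cell type markers and pathways described in the report. Intervals are at 95% and unadjusted. The limma script was tested on simulated data. Alternatives were other normalizations (normexp with offset 50 on median signals, quantile, median scaling), filters, blocks, scan day, and each gilt left out.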

Additional observations from a re-analysis of the deposited data

Results flagged for a closer look

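Among the named genes, the values of the 4 control gilts and of the 5 placebo horns were each checked for a sample far from the others by Dixon's ratio of gap to range, a rule that chance meets in about 1 in 20 groups. Of 266 sets of values 15 had a distant sample, near the 13.3 that 1 in 20 would give. Placebo horn 47 was that sample in 10 of them and a control gilt in 5. The horn of gilt 47 was highest for the T cell receptor chains CD3G (0.59) and CD3D (-2.12), the T and natural killer cell adhesion gene CD2 (-0.59), the B cell genes MS4A1 (-0.96) and CD79A (-1.79), the lymphocyte growth factor IL15 (-1.30), the interferon-induced GTPase GBP1 (4.68), the MHC class II invariant chain CD74 (4.14) and the glycolytic enzyme PGK1 (4.63). For IFN-DELTA-1 the same horn was lowest (-3.36). Of these genes IFN-DELTA-1 alone passed in placebo horns against control gilts.

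Control gilts stood apart at 5 genes. Control gilt 9 was lowest for LYZ (-0.51), for the cyclin CCNB2 (-6.39) and for LPAR3 (-4.91), and control gilt 46 was lowest for MITF (1.57) and highest for PGK1 (3.46). For MITF and PGK1 gilt 46 was thus the control nearest to the placebo horns, while gilt 9 was the farthest for its 3 genes.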

How the results depend on the processing

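The number of probes passing in placebo horns against control gilts (1728) stayed within 1.5 times under 8 of the alternatives that kept all gilts (scalings, the authors' deposited table, filters, outlier values and the scan day term: 1468 to 2202). It was 3570 with no replicate block, 5005 with slide as the block, 142 with control horns averaged and hormone horns in the fit with the replicate block, 14 with the placebo and control horns alone, and 0 both with control horns averaged and no replicate block (8746 at an unadjusted p under 0.05) and with control horns marked L alone (7437; limma in each). At a threshold of 0.1, an alternative chosen after seeing the data, the averaged fit passed 899. Within scan days 1, 2 and 3, each with 1 or 2 gilts per group, 13, 30 and 0 probes passed (3665 at an unadjusted p under 0.05 on day 3). Leaving out a gilt gave 0 to 3294, and leaving out gilt 47 together with hormone horn 36 gave 429. In hormone against placebo horns (1 probe) the count was 0 with the authors' table, median scaling, normexp, no replicate block, gilt as a fixed replicate block, averaged control horns, and within scan days 1 and 3. It was 33 with quantile normalization, 5 with the scan day term, 2 with at least 15 arrays above background, 8 within scan day 2, 0 to 16 with a gilt left out and 21 with gilt 47 and that hormone horn both left out. The cause of these differences was not tested. Of the 48 named genes that passed, 32 passed under all 4 other scalings and 48 kept their direction under them. These genes were chosen by passing on the same arrays, so the kept direction gives no separate support. List medians changed sign with a scaling for ribosomal proteins (-0.04 to 0.07) and oxidative phosphorylation (-0.01 to 0.04), and with a gilt left out also for B cells (-0.03 to 0.74), smooth muscle (-0.35 to 0.06), acute phase (-0.02 to 0.25) and interferon-induced genes (-0.11 to 0.21). Normexp used median spot signals, chosen after seeing the files. Probes not above background, such as TREM1 in most control arrays, have uncertain folds.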

Other observations

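The animals nearest to the other group were often the same ones. Among the 110 genes that rose, control gilt 46 was the control nearest to the placebo horns in 78. The placebo horn nearest to the controls was that of gilt 36 in 42 genes, gilt 44 in 31, gilt 41 in 26, gilt 38 in 10 and gilt 47 in 1. The horn of gilt 47 was the farthest from the controls in 70. Among the 25 genes that fell, gilt 36 was nearest in 11 and gilt 47 farthest in 14. For S100A8 placebo horn 36, at -0.97, was above the highest control gilt at -3.05, while placebo horn 44 was within the control range. DMBT1, TMEM171, CEBPB and SGK1 were above the control range in gilts 36 and 44 alike.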
